A study of Homo sapiens with 6 samples.

Results

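The genes that make, break down and regulate polyamines were followed in HCT116 cells, an established human colorectal cancer line, after knockdown of PNO1, a protein needed to mature the small ribosomal subunit. All cells were HCT116 and all were transduced with lentivirus. One group of 3 samples carried a control short hairpin RNA (sh-Ctrl) and the other group of 3 carried a hairpin against PNO1 (sh-PNO1), and RNA was taken at 72 h. The labels describe 1 PNO1 hairpin, so its effects on other transcripts cannot be told apart from those of PNO1 loss. Each sample went onto 1 Affymetrix array, whose probe sets each report a linear intensity. The 10 genes were chosen by name, with earlier results of these data known. These are ODC1, AMD1, SRM and SMS for synthesis, SAT1, PAOX and SMOX for breakdown, and OAZ1, OAZ2 and AZIN1 for the control of ODC1. They are read by 35 probe sets with a single gene symbol, of 49293 probe sets tested, and each gene is represented by its brightest, 10 genes of 18132.

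Polyamines are small positively charged molecules that bind RNA and ribosomes and are needed for growth. ODC1, ornithine decarboxylase, makes putrescine from ornithine and is the rate-limiting step. AMD1 decarboxylates S-adenosylmethionine to give the aminopropyl donor, SRM adds an aminopropyl group to putrescine to make spermidine, and SMS adds another to make spermine. SAT1 acetylates spermidine and spermine so that they can be exported or oxidised by PAOX, while SMOX oxidises spermine directly. The antizymes OAZ1 and OAZ2 bind ODC1 and take it to the proteasome, and AZIN1 is an ODC1 relative without enzyme activity that ties antizyme up. Much of this control acts on translation and protein stability, for which an array of RNA gives no value.

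The target fell on the sh-PNO1 arrays. The brightest PNO1 probe set read 535, 535 and 532 in sh-Ctrl and 105, 108 and 105 in sh-PNO1, a log2 change of −2.33 ± 0.04 (SE, n = 3 per group; limma adjusted p = 3.32e-07). Array medians lay between 25.6 and 25.9, and correlations of log2 values were 0.9981 to 0.9987 within a group and 0.9916 to 0.9929 between groups. The difference between the 3' and 5' ACTB control probe sets, which reads RNA quality, set 1 array apart: in log2 units it was 2.25 for sh-PNO1 replicate 2 and 1.73 to 1.87 for the remaining arrays. The same difference for GAPDH was small on all arrays but separated the groups (sh-Ctrl from −0.03 to −0.01, sh-PNO1 from −0.08 to −0.06), and its part in the results was not tested. With sh-PNO1 replicate 2 left out, the polyamine probe sets that passed still numbered 7 higher and 4 lower. Leaving out any other single array gave 5 higher and 4 to 5 lower. Of 9 colorectal epithelial markers 4 were above every background probe set (EPCAM, KRT8, KRT18 and KRT19), whereas VIL1 (4.88 in sh-Ctrl) and CDH17 (11.1) were dim. Leukocyte, endothelial and fibroblast markers had sh-Ctrl means of 3.79 to 36.7, and none of those measured passed the test. Of the epithelial markers KRT19 (log2 change 0.37) and CDH1 (0.31) rose. The labels do not say that replicates were separate cultures, so every p-value measures only how these arrays vary, and that variation may be technical. Their number limits the precision. In RNA from a whole culture, fewer cells of a kind and less RNA per cell cannot be told apart.

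SRM and OAZ2 rose and SAT1 fell on every probe set, AZIN1 fell on its brighter probe set, and ODC1, PAOX, SMOX and OAZ1 did not pass on any. A probe set passed at an adjusted p under 0.05 in limma, fitted over all probe sets. Of the 35 polyamine probe sets 7 passed as higher (20%) and 4 as lower (11.4%), against 14.8% and 13.2% of all probe sets. In all 31.4% passed, close to the 28.0% over the whole table, so the count itself does not set these genes apart. Their median log2 change was −0.03, beside 0.01 over all probe sets. By brightest probe set 2 of the 10 genes rose (SRM and OAZ2) and 2 fell (SAT1 and AZIN1), against 18.4% and 13.2% of all genes. The groups did not overlap in 18 of the 35 probe sets (51.4%), against 40.2% of all, nor in 7 of the 10 brightest, against 44.7% of all genes.

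**Figure D1:**
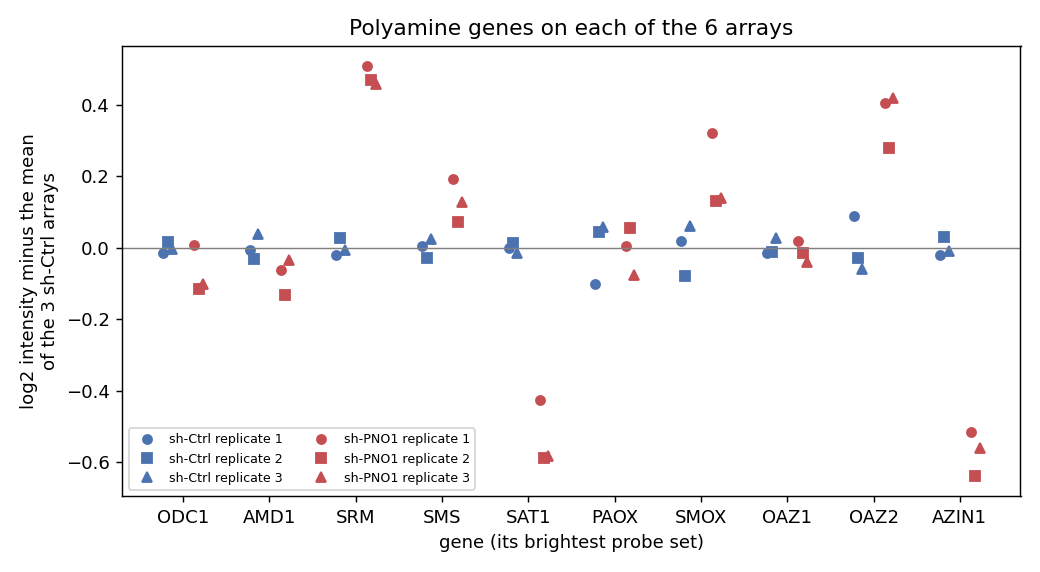
Log2 intensity of the brightest probe set of each of the 10 genes on each array, less the mean of the 3 sh-Ctrl arrays; circles, squares and triangles are replicates 1, 2 and 3, blue sh-Ctrl and red sh-PNO1. The sh-PNO1 arrays lie clear above sh-Ctrl for SRM and OAZ2 and clear below for SAT1 and AZIN1, while those of ODC1, PAOX and OAZ1 mix with sh-Ctrl.

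Among the 4 synthesis genes SRM changed most. Its brighter probe set read 617, 637 and 624 in sh-Ctrl and 890, 868 and 860 in sh-PNO1. All sh-PNO1 arrays stood well above all sh-Ctrl arrays, and the means were 626 ± 10.4 and 872 ± 15.7 (SD, n = 3). The log2 change was 0.48 ± 0.04 (SE; limma adjusted p = 0.000109), 1.39-fold. The other SRM probe set went from 330 ± 7.05 to 477 ± 15.01 (SD, n = 3), 1.45-fold (limma adjusted p = 9.58e-05). SRM thus rose by a similar factor on both probe sets.

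The promoters of SRM, SAT1 and OAZ2 are shown because these are the genes that passed on every probe set. Of the 10 genes 7 matched the RefSeq promoter table (build GRCh38.p14), and PAOX, SMOX and AZIN1 were not matched. The 250 bases before each start site were searched on both strands for the E-box CACGTG, a site of basic helix-loop-helix factors, for the CCAAT box (CCAAT, or ATTGG on the other strand) and for the GC box GGGCGG (or CCGCCC). These occur in 6.34%, 32.0% and 42.6% of the 35116 windows of that length. SRM lies on the minus strand and its window is chr1:11060019-11060268. In it the capitals mark 1 E-box, starting 199 bases before the start site, and 2 CCAAT boxes, and 6 GC boxes are left in lower case.
SRM: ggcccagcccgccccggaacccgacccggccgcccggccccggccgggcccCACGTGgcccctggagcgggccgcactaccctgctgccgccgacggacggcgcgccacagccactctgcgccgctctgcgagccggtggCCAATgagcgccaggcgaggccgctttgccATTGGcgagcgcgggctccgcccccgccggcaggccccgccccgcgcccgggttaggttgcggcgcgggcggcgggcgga
The 2 CCAAT boxes of SRM face opposite ways.

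ODC1, the rate-limiting enzyme, was read by 1 probe set. It gave 856, 874 and 863 in sh-Ctrl and 868, 797 and 806 in sh-PNO1. The sh-PNO1 replicate 1 array fell inside the sh-Ctrl range and the other two lay below it, so the groups overlapped. The log2 change was −0.07 ± 0.05 (SE; limma adjusted p = 0.336), with a 95% interval of −0.18 to 0.04. An increase as large as that of SRM lies outside this interval. ODC1 also holds the E-box, though not in the window of its first listed start site. Its second listed start site, on the minus strand of chromosome 2, has CACGTG 29 bases before the start and again just after it. Both sites are printed with their flanks (chr2:10448027-10448050 and chr2:10447993-10448016), capitals marking the E-box, because SRM and ODC1 share these letters and differed in their change.
ODC1 upstream site: ggccccgggCACGTGtgcggcgcg
ODC1 downstream site: ctgcggagaCACGTGgtcgccgag
A match of letters is a description and does not show that a factor binds there.

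SMS, which follows SRM in the pathway, stood higher in sh-PNO1 by a smaller amount. One bright probe set read 1197, 1141 and 1197 in sh-Ctrl and 1539, 1293 and 1345 in sh-PNO1, a log2 change of 0.24 ± 0.07 (SE; limma adjusted p = 0.0356). The groups did not overlap, but replicate 1 of sh-PNO1 was well above the other two. This call held without sh-PNO1 replicate 2 but on leaving out any other array it was lost: the adjusted p was 0.0845 without sh-Ctrl replicate 1, 0.121 without sh-Ctrl replicate 2, 0.0845 without sh-Ctrl replicate 3, 0.0535 without sh-PNO1 replicate 1 and 0.0668 without sh-PNO1 replicate 3. The other bright probe set went from 1231 ± 22.8 to 1349 ± 56.8 (SD, n = 3), a log2 change of 0.13 that did not pass (adjusted p = 0.0785). It passed with arrays set to equal means of housekeeping genes (0.17, adjusted p = 0.0328) and under 3 other alternatives. The dimmest probe set, with group means of 5.03 and 4.59, stood at −0.13 (adjusted p = 0.187). With all SMS probe sets averaged the log2 change was 0.08 (adjusted p = 0.221). Both bright probe sets are of the cross-matching types (_x_at and _s_at), and with those types left out no SMS call remained.

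The 6 AMD1 probe sets did not move alike. The brightest read 748, 736 and 771 in sh-Ctrl and 719, 685 and 734 in sh-PNO1, a log2 change of −0.08 ± 0.05 (SE; limma adjusted p = 0.272). The next 3 stood at −0.08, −0.09 and −0.10, and none of these passed. The 2 dimmest passed as higher. One read 215 on all 3 sh-Ctrl arrays and 260, 239 and 258 in sh-PNO1 (log2 change 0.23, adjusted p = 0.00799), and the other went from 121 ± 5.12 to 143 ± 11.3 (SD, n = 3; log2 change 0.24, adjusted p = 0.0264). Within each array the log2 ratio of the first of these to the brightest probe set went from −1.81 ± 0.03 to −1.50 ± 0.03 (SD, n = 3). With all 6 averaged AMD1 stood at 0.02 (adjusted p = 0.695). The call of the dimmest held without sh-PNO1 replicate 2 and was lost on leaving out any other array: the adjusted p was 0.055 without sh-Ctrl replicate 1, 0.0671 without sh-Ctrl replicate 2, 0.096 without sh-Ctrl replicate 3, 0.0647 without sh-PNO1 replicate 1 and 0.0691 without sh-PNO1 replicate 3. Both probe sets that passed are of the cross-matching types (_s_at and _x_at). The only AMD1 probe set of neither type stood at −0.10 (limma adjusted p = 0.101). So AMD1 has no single direction in these data.

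**Figure D2:**
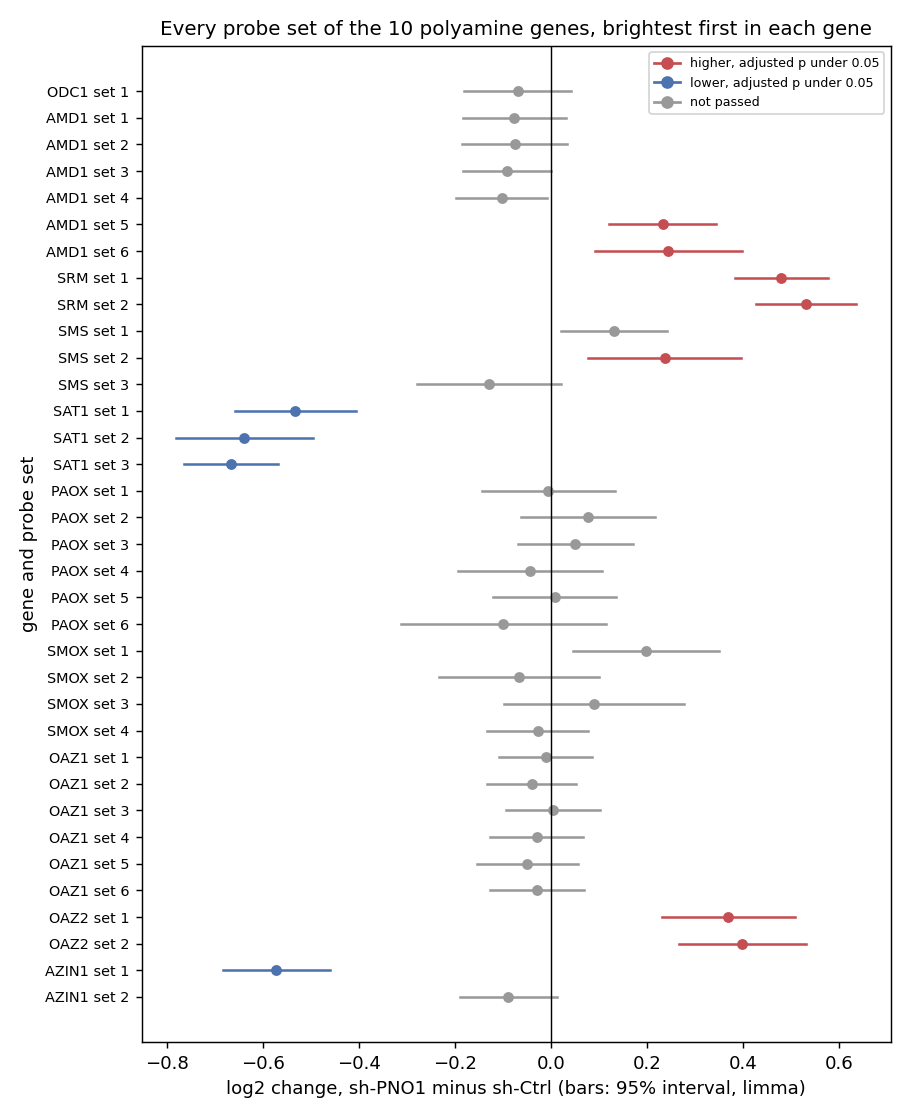
Log2 change, sh-PNO1 minus sh-Ctrl, of all 35 probe sets with the 95% interval from limma, red for higher and blue for lower at an adjusted p under 0.05, grey for not passed. SRM, SAT1 and OAZ2 agree over their probe sets, whereas those of AMD1 and AZIN1 lie apart.

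In breakdown, SAT1 fell on 3 of 3 probe sets. The brightest read 968, 977 and 958 in sh-Ctrl and 719, 643 and 646 in sh-PNO1. Every sh-PNO1 array was below every sh-Ctrl array. Here replicate 1 of sh-PNO1 was the least reduced, whereas on the other SAT1 probe sets it was the most reduced. The mean went from 967 ± 9.88 to 669 ± 43.3 (SD, n = 3), so 69.2% of the control intensity remained (log2 change −0.53 ± 0.05 SE, limma adjusted p = 0.000242). Of the others, the brighter kept 64.3% (384 ± 13.7 to 247 ± 17.3; log2 change −0.64, limma adjusted p = 0.000176). The dimmer kept 63.0% (37.5 ± 0.54 to 23.6 ± 0.49; log2 change −0.67, limma adjusted p = 2.28e-05). Over all 35 probe sets the lowest log2 change was that of this dimmest SAT1 probe set, while by brightest probe set AZIN1 was lowest. The SAT1 window, on the plus strand at chrX:23782923-23783172, held no E-box and no GC box, and its 2 CCAAT boxes are in capitals.
SAT1: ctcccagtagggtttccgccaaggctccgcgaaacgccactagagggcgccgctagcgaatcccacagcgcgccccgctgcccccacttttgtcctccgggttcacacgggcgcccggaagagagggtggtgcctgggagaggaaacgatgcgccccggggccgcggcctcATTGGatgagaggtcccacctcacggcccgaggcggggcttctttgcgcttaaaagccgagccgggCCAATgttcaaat
The CCAAT box nearest the start began 13 bases before it.

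The oxidases gave no call. The brightest SMOX probe set read 72.6, 67.8 and 74.7 in sh-Ctrl and 89.5, 78.5 and 78.9 in sh-PNO1. The groups did not overlap, but the log2 change of 0.20 ± 0.07 (SE) just missed the threshold (limma adjusted p = 0.0588). It passed with arrays set to equal housekeeping means (0.24, adjusted p = 0.0174) and under 3 other alternatives. With any single array left out it did not pass. The other 3 SMOX probe sets stood at −0.07, 0.09 and −0.03. With all SMOX probe sets averaged the log2 change was 0.05 (limma adjusted p = 0.337). PAOX was dim on all 6 of its probe sets, with group means of 5.58 to 30.4. Its brightest read 28.3, 31.3 and 31.6 in sh-Ctrl and 30.4, 31.5 and 28.8 in sh-PNO1, fully overlapping (log2 change −0.006 ± 0.06 SE, limma adjusted p = 0.956), and the others lay between −0.10 and 0.08. These intensities lie within the range of the background probe sets, where a change can be understated.

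The antizyme genes differed from each other. OAZ1, the main antizyme, was bright on all 6 probe sets and passed on none. Its brightest read 4164, 4167 and 4283 in sh-Ctrl and 4259, 4162 and 4093 in sh-PNO1, with overlapping groups. The log2 change was −0.01 ± 0.04 (SE; limma adjusted p = 0.873), with a 95% interval of −0.11 to 0.09, and the other 5 stood between −0.05 and 0.004. OAZ2 rose on both of its probe sets. The brighter read 265, 244 and 239 in sh-Ctrl and 330, 303 and 334 in sh-PNO1. No sh-PNO1 array came down to the sh-Ctrl range, and the log2 change was 0.37 ± 0.06 (SE; limma adjusted p = 0.00248), 1.29-fold. The dimmer went from 53.4 ± 1.73 to 70.5 ± 4.47 (SD, n = 3), 1.32-fold (limma adjusted p = 0.00136). The OAZ2 window, on the minus strand at chr15:64703282-64703531, held no E-box and no CCAAT box, and 1 GC box that stands in capitals. OAZ1, which did not pass, has 2 CCAAT boxes and 2 GC boxes in its own window.
OAZ2: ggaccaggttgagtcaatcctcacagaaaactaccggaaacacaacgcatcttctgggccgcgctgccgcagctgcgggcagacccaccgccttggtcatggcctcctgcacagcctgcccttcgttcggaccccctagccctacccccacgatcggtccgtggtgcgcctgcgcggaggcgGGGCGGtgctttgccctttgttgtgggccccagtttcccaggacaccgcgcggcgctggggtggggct
None of these matches says whether a factor acts on the gene.

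AZIN1, the antizyme inhibitor, depended on the probe set. The brighter read 492, 509 and 496 in sh-Ctrl and 349, 320 and 338 in sh-PNO1. All sh-PNO1 arrays were far below sh-Ctrl and 67.3% of the intensity remained (log2 change −0.57 ± 0.05 SE, limma adjusted p = 8.79e-05). The dimmer read 239, 245 and 244 in sh-Ctrl and 236, 224 and 224 in sh-PNO1. Here the groups also did not overlap, but the log2 change of −0.09 ± 0.04 (SE) did not pass (limma adjusted p = 0.18). Within each array the log2 ratio of the brighter to the dimmer went from 1.04 ± 0.01 to 0.56 ± 0.04 (SD, n = 3), a difference of −0.48 ± 0.02 (SE). An exact two-sided permutation test of that ratio gave p = 0.1, the smallest that 3 arrays against 3 allow. With both probe sets averaged AZIN1 was lower (−0.33, limma adjusted p = 0.000269). Which transcripts each probe set reads was not analysed here.

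**Figure D3:**
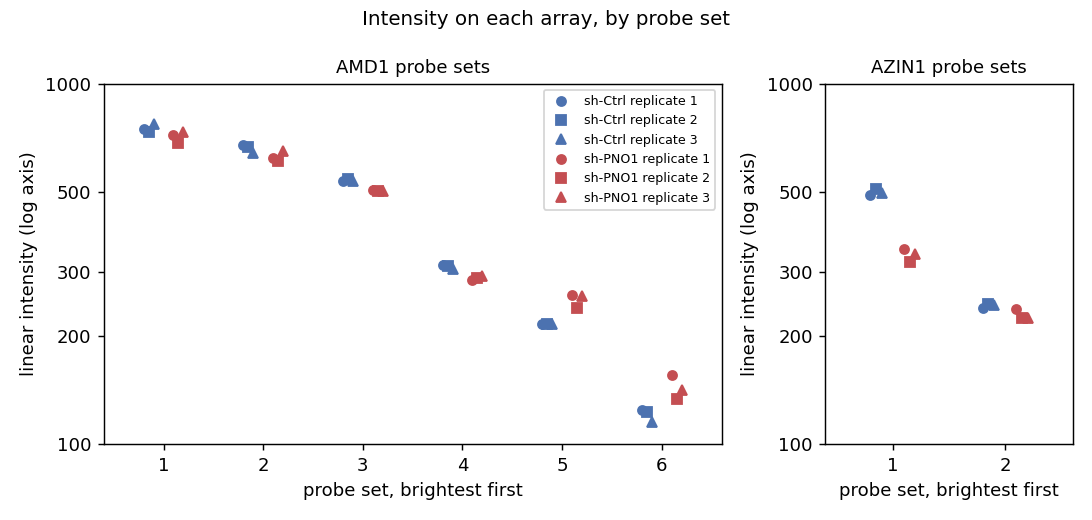
Linear intensity, on a log axis, of the 6 AMD1 and 2 AZIN1 probe sets on each array; blue is sh-Ctrl, red sh-PNO1, and circles, squares and triangles are replicates 1, 2 and 3. For AMD1 the 4 brighter probe sets are slightly lower and the 2 dimmer higher in sh-PNO1. For AZIN1 the brighter is clearly lower (499 to 336), against 243 to 228 for the dimmer.

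Changes of different members were also set against each other within each array, which takes out any scaling of the array. By brightest probe set, the log2 change of SRM exceeded that of SMS by 0.35 ± 0.04 (SE, n = 3 per group). The change of OAZ2 exceeded that of OAZ1 by 0.38 ± 0.07 (SE), and the change of SRM exceeded that of SAT1 by 1.01 ± 0.04 (SE), the synthesis gene up and the acetylase down. In each pair the 3 sh-PNO1 ratios lay wholly above the 3 sh-Ctrl ratios. With the AMD1 and AZIN1 ratios 5 pairs were compared, all chosen with their values known, and an exact two-sided permutation test gave p = 0.1 for each, which is 0.1 after Benjamini-Hochberg adjustment. A value under 0.05 is out of reach with 3 arrays against 3.

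Around the pathway, 31 neighbouring genes were listed from textbook knowledge in 5 groups, and 30 had a probe set of their own. The list was drawn up with earlier results of these data known, so its shares do not come from a blind choice. By brightest probe set 10 rose (33.3%) and 7 fell (23.3%), against 18.4% and 13.2% of all genes. Their median log2 change was 0.05, beside 0.03 over all genes. By brightest probe set ARG2, EIF5A2, NQO1 and MTAP changed by more than any member, MTAP (−0.58) barely more than AZIN1 (−0.57). NQO1 was among the 7 of 30 genes with a group mean above every background probe set, whereas ARG2, EIF5A2 and MTAP were not. With single arrays left out, 7 to 9 of the 30 passed as higher and 7 as lower.

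In ornithine supply 2 of 6 genes rose and 1 fell, few genes to set beside the 18.4% and 13.2% of all genes. ARG2, the mitochondrial arginase that makes ornithine from arginine, read 34.2, 36.5 and 35.5 in sh-Ctrl and 62.2, 68.7 and 70.1 in sh-PNO1. All sh-PNO1 arrays lay far above sh-Ctrl, 1.89-fold (log2 change 0.92 ± 0.06 SE, limma adjusted p = 2.26e-05), and its other probe set also rose. OAT, which interconverts ornithine and glutamate semialdehyde, rose from 1078 ± 68.3 to 1251 ± 67.3 (SD, n = 3; log2 change 0.22, limma adjusted p = 0.0356). ALDH18A1, which makes the glutamate semialdehyde precursor from glutamate, fell from 370 ± 2.86 to 270 ± 11.4 (SD, n = 3; log2 change −0.46, limma adjusted p = 0.000235). ARG1, AGMAT and GATM did not pass.

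In methionine supply and salvage 5 of 9 genes rose and 3 fell by brightest probe set, against 18.4% and 13.2% of all genes. Salvage recycles the methylthioadenosine that SRM and SMS release. MTAP, which cleaves it, read 414, 440 and 419 in sh-Ctrl and 273, 294 and 286 in sh-PNO1. The groups were far apart (log2 change −0.58 ± 0.05 SE, limma adjusted p = 9.55e-05), and 4 of its 6 probe sets fell. The next enzymes went both ways. MRI1 rose by 0.31, passing on 1 of 3 probe sets. APIP rose by 0.37 (limma adjusted p = 0.000522) and ADI1 by 0.33 (limma adjusted p = 0.00143), whereas ENOPH1 stood at −0.29. For the synthesis of S-adenosylmethionine, the catalytic subunit MAT2A fell on 6 of 6 probe sets (brightest −0.29, limma adjusted p = 0.00185). Its regulatory partner MAT2B rose by 0.19 and the liver form MAT1A, dim at 25.2 in sh-Ctrl, by 0.36. For MAT1A sh-PNO1 replicate 1 read 38.0, against 30.7 and 29.0 for replicates 2 and 3. The other MAT1A probe set, dimmer still, stood at −0.02 (limma adjusted p = 0.905). MRI1, ENOPH1, MAT2A, MAT2B and MAT1A were named after their values were seen. AHCY, which clears S-adenosylhomocysteine, did not pass on its brightest probe set (−0.03, limma adjusted p = 0.76), but fell on the other 2 (−0.14 and −0.25, limma adjusted p = 0.0441 and 0.015).

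Spermidine is also the substrate for hypusine, an amino acid made on the translation factor eIF5A by DHPS and DOHH. EIF5A2, the less widely expressed eIF5A gene, fell on its brightest probe set from 90.7 ± 1.12 to 49.3 ± 4.68 (SD, n = 3; log2 change −0.88 ± 0.07 SE, limma adjusted p = 6.48e-05), and 2 of its 4 probe sets fell. EIF5A itself stood at 0.13 (limma adjusted p = 0.0608), with none of its 6 probe sets passing. DOHH, the hydroxylase, rose by 0.26 (limma adjusted p = 0.0045) on 1 of 2 probe sets, and DHPS did not pass on any of 5.

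In transport, SLC3A2, a heavy chain of amino acid transporters that has been linked to polyamine export, fell on 7 of 7 probe sets. Its brightest read 537, 557 and 566 in sh-Ctrl and 462, 459 and 469 in sh-PNO1, with no overlap (log2 change −0.26 ± 0.04 SE, limma adjusted p = 0.00283). SLC18B1, a vesicular polyamine transporter, rose by 0.25 (limma adjusted p = 0.00548) on 1 of 3 probe sets. ATP13A2, the lysosomal polyamine exporter, stood at 0.16 (limma adjusted p = 0.137), and ATP13A3, SLC12A8 and GPC1 did not pass.

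In the last group SAT2, a SAT1 relative, went the other way from SAT1: it rose from 300 ± 7.23 to 401 ± 19.8 (SD, n = 3; log2 change 0.42 ± 0.05 SE, limma adjusted p = 0.000611). NQO1, a quinone reductase that can bind ODC1 and shield it from degradation, fell on both probe sets, the brighter from 1609 ± 46.1 to 965 ± 25.9 (SD, n = 3; log2 change −0.74, limma adjusted p = 2.1e-05). HDAC10, the deacetylase of acetylspermidine, stood at 0.32 (limma adjusted p = 0.108), with replicate 1 of sh-PNO1 at 45.0 against 32.2 and 31.8 on the other two. OAZ3 and AZIN2, both dim here, did not pass on their brightest probe sets, though 1 of the 11 AZIN2 probe sets fell (−0.25, limma adjusted p = 0.0118).

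**Figure D4:**
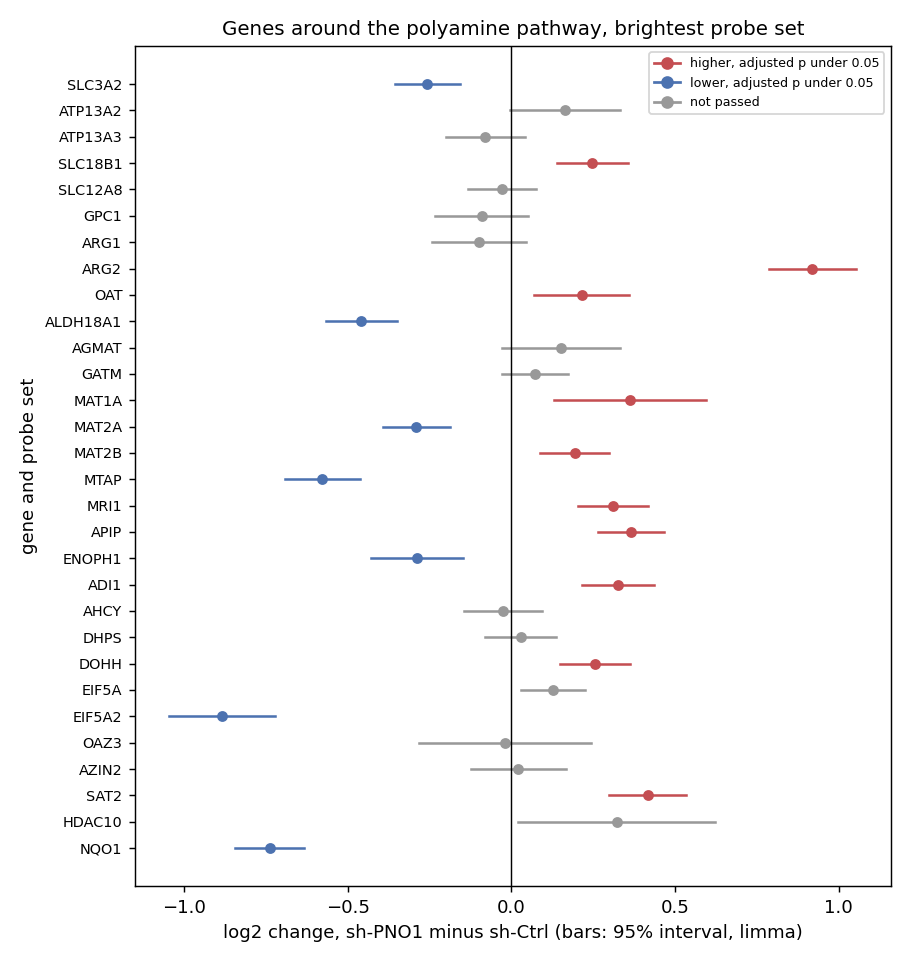
Log2 change, sh-PNO1 minus sh-Ctrl, of the brightest probe set of 30 genes around the pathway with the 95% interval from limma; red is higher and blue lower at an adjusted p under 0.05, grey not passed. ARG2 stands highest at 0.92 and EIF5A2 lowest at −0.88.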

How the data were processed

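The authors deposited linear intensities, 1 per probe set and array, for 6 arrays hybridised with cRNA from 100 ng of total RNA per the labels. Per the submitters' processing notes RMA was used, with no version. Not given in the sources used here were the software, its background step and the build. RMA usually returns log2 values, but the deposited intensities are linear, so log2 was taken here. Normalisation between arrays removes any overall change of RNA, so changes are relative to other transcripts.

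Of 49395 probe sets 102 controls were left out, and 44988 had 1 symbol, 1832 several and 2473 none in the platform table. Every probe set was fitted in limma 3.58.1 (R 4.3.3; lmFit, eBayes), sh-PNO1 minus sh-Ctrl, with Benjamini-Hochberg adjustment over all 49293 and no covariate. The 23 background probe sets had group means of 2.52 to 804. The brightest probe sets of OAZ1, SMS, SAT1, ODC1 and SRM had a group mean above all 23, SRM only in sh-PNO1 and SAT1 only in sh-Ctrl, the groups where they are high; the other genes could not be judged singly.

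Alternatives to scaling, prior, filters, probe set choice and arrays are in the closing section. Named were all 10 members, every member probe set that passed with a change of at least 0.3, and of each neighbour group up to 3 genes with the smallest adjusted p and any changed by 0.5. Members and lists were chosen with earlier results of these data known. On simulated data with 49293 probe sets, 200 of them changed, the step recovered 0% of changes of 0.25, 64.5% of 0.5 and 96.0% of 1 on the log2 scale. In the real data 13791 probe sets passed, which makes the adjustment less strict than in the simulation. These shares therefore do not measure what the real test could detect.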

Additional observations from a re-analysis of the deposited data

How the results depend on the processing

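The calls of SRM, OAZ2, SAT1, PNO1 and the brighter AZIN1 probe set kept their direction and stayed past the threshold under all alternatives run on them. So did the first of the higher AMD1 probe sets, but leaving out a sh-Ctrl array could not move its estimate, since the 3 values are the same. It was not in the run without cross-matching probe sets, and with all AMD1 probe sets averaged the gene did not pass (limma adjusted p = 0.695). Deviations of same-numbered arrays from their group means correlated at −0.04, 0.10 and −0.03. Differently numbered arrays were not set beside them, so these values cannot show whether the replicate numbers pair the arrays. With the replicate number as a block 7 polyamine probe sets were higher and 4 lower, as without it, and no member's call changed; over all probe sets 12964 passed, against 13791. With cross-matching probe sets (_x_at, _s_at) left out, 18 polyamine probe sets remained, of which 3 were higher and 3 lower, and 8711 of the 34921 probe sets left passed; at an adjusted p under 0.01 it was 8666 of all 49293. Genes higher by brightest probe set numbered 4 in place of 2 with a robust, trended prior and with equal housekeeping means, SMS and SMOX being added (8 housekeeping genes were used). With single arrays left out, 5 to 7 polyamine probe sets were higher and 4 to 5 lower, and 10834 to 11888 probe sets passed. Values that were near 0 and never passed changed sign: AMD1 stood at 0.021 with its probe sets averaged, and with equal housekeeping means OAZ1 stood at 0.0292 and PAOX at 0.0349. With single arrays left out OAZ1 ranged from −0.0267 to 0.0021 and PAOX from −0.0570 to 0.0290. The cause of these shifts was not tested. The probe set of SMS that passed and the dimmest of AMD1 also lost their call with an unmoderated statistic (adjusted p = 0.133 and 0.108). For PAOX and other dim probe sets, signal over background limits what could be detected.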

Other observations

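A further probe set is assigned to both AMD1 and the pseudogene AMD1P3 and was left out of the counts. It read 92.7, 93.7 and 92.7 in sh-Ctrl and 113, 104 and 98.1 in sh-PNO1, a log2 change of 0.17 ± 0.06 (SE) that did not pass (limma adjusted p = 0.0578). Its direction was that of the 2 dimmer AMD1 probe sets and not of the 4 brighter.

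Some probe sets hold exactly the same deposited value on all 3 arrays of a group: 751 of 49293 (1.52%) in sh-Ctrl and 651 (1.32%) in sh-PNO1. Among the polyamine probe sets these were an AMD1 probe set at 215 and a SMOX probe set at 18.3, both in sh-Ctrl, where the SD is therefore 0. The spread of these 2 is understated by the values themselves, and their p-values rest on the sh-PNO1 arrays and on the spread limma borrows from other probe sets.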
